A study of Mus musculus with 3 samples.

Results

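The interferon regulatory factors are a family of transcription factors, and 7 of its genes (Irf1, Irf2, Irf3, Irf5, Irf7, Irf8 and Irf9) were followed here across single-cell transcriptomes of mouse colon organoids. They were taken by gene symbol from the 32285 genes of the count matrices, and each of the 7 had at least 1 UMI (unique molecular identifier, the tag that marks 1 captured RNA molecule) in each library. The other family members were not analysed here. Organoids are cultures grown from crypt stem cells in a basement membrane matrix, so they hold epithelium without the immune and stromal cells of the colon wall. In this study they came from wild-type mice and were left untreated or were exposed to IFN-γ, the cytokine that T cells and natural killer cells release in colitis, for 24 h or 48 h. Dead cells were sorted out and polyA RNA was counted from the 3′ end in 1 droplet library per condition. The comparison asks how the epithelium itself responds to the cytokine. With 1 library per condition a difference between conditions has no replicate check and cannot be told apart from a difference between libraries, so values are given with 95% intervals that cover counting error only, and no test was made.

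All members share an N-terminal DNA-binding domain that reads the interferon-stimulated response element (ISRE). When IFN-γ binds its receptor, signalling through the kinases JAK1 and JAK2 switches on a first set of genes by way of the gamma-activated site (GAS), Irf1 among them, and IRF1 then acts on a second, later set. IRF9 is the DNA-binding subunit of the complex ISGF3, the effector of the type I and type III interferons, while IRF3, IRF5 and IRF7 are held inactive until a sensor of microbial nucleic acid leads to their phosphorylation, and IRF2 competes with IRF1 for the same DNA. IRF8 is best known from macrophages, dendritic cells and B cells, where it works with partner factors.

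The libraries held 20841, 17227 and 22478 barcodes (untreated, 24 h and 48 h), of which 1058, 917 and 2934 passed the study's stated minimum of 5000 UMIs. Those cells held 47243500 to 71077817 UMIs per library, with medians of 33550, 68784 and 10772 UMIs per cell, so the 48 h cells were the shallowest. Any pair of libraries shared at most 4 cell barcodes. The cells carried the epithelial label in their RNA. Levels are given as CPM, a gene's UMIs over all UMIs of the library's cells, scaled to the same fixed total in each library. The adhesion gene Epcam was at 1435, 1463 and 1184 CPM, and the leukocyte marker Ptprc had 0 UMIs in all 3 libraries. Of 7 epithelial genes Epcam had the highest ratio at 24 h. The 7 together held 8217, 6107 and 5518 CPM, and 1 of them was at least 2-fold lower at each time. Their median log2 ratio was -0.46 at 24 h and -0.28 at 48 h. The 15 immune markers together held 0.563 to 1.25 CPM, the 7 stromal markers 0.535 to 1.29 and the 3 endothelial markers 0.352 to 1.23. In the treated libraries 10 of 14 colonocyte markers at 24 h and 9 of 14 at 48 h were at least 2-fold below the untreated library. Krt20 had the highest ratio of these markers at both times. Of 12 goblet markers, 11 were at least 2-fold lower and 1 higher at each time. Of all genes tested, 26.0% and 16.6% were at least 2-fold lower.

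The windows of up to 250 bases upstream of the annotated start are shown for the 3 members in which a GAS or ISRE-like motif was found, since these are the elements through which the IFN-γ signal and the factors themselves act. The sequences are RefSeq promoter windows on GRCm38.p6, all on the + strand, printed 5′ to 3′ up to the first base before the gene's start, with motif matches in capitals. The motifs searched on both strands were TTCNNNGAA (GAS), which reads the same on either strand, and the ISRE core, which is GAAA, any 2 bases and GAAA again.
Irf1, chr11:53769764-53770013: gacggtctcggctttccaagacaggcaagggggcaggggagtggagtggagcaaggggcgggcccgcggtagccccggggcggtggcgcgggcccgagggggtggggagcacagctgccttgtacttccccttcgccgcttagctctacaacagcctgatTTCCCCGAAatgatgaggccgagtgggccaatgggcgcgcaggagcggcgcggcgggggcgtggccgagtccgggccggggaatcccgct
Irf8, chr8:120736108-120736357: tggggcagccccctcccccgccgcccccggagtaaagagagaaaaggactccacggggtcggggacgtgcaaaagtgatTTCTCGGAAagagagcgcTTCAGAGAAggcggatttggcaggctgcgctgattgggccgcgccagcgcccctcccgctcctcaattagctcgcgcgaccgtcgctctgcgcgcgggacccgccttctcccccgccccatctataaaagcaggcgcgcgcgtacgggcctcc
Irf2, chr8:46739495-46739731: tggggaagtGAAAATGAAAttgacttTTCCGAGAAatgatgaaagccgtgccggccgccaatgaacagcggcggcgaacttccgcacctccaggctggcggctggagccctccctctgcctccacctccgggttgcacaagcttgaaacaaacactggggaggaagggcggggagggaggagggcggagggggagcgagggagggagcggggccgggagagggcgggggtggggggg
The Irf1 window held 1 GAS match, TTCCCCGAA, at 90 to 82 bases before the start. The Irf8 window held a pair of them, TTCTCGGAA at 171 to 163 bases and TTCAGAGAA at 153 to 145 bases before the start. The Irf2 window held 1 GAS match, TTCCGAGAA, and beside it the ISRE core GAAAATGAAA, without overlap. Among 32851 such windows of 27025 mouse genes, 7.02% held the GAS letters and 2.98% the ISRE core. No match to either was found in the windows of Irf3, Irf5, Irf7 and Irf9, which says only that these letters are not in these windows. The Irf9 windows precede RefSeq starts that lie 414 and 1008 bases inside the gene as placed by the GENCODE annotation. The bases before the GENCODE start of Irf9 were therefore not searched. A further window of Irf1 and of Irf8, each at a later RefSeq start, held no match. A match is a description of sequence and not of binding.

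In the GENCODE annotation of GRCm38, Irf1 lay at chr11:53770014-53778374, Irf2 at chr8:46739732-46847458, Irf3 at chr7:44997648-45002848, Irf5 at chr6:29526625-29541871, Irf7 at chr7:141262706-141266481 (minus strand, the others plus), Irf8 at chr8:120736358-120756694 and Irf9 at chr14:55603571-55610030. Each overlapped at least 1 other gene. Irf9 shared 123 exonic bases on the same strand with Rnf31, and Irf8 lay inside the same-strand model Gm20388 with 0 shared exonic bases. Irf1, Irf3, Irf5 and Irf7 shared 135, 88, 411 and 45 exonic bases with genes on the opposite strand. Counts that fall in the shared bases of Irf9 and Rnf31 are uncertain as to gene.

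Of the 7 factors, 4 were higher in both treated libraries, Irf1 and Irf8 most, then Irf7 and Irf9. Their levels at 24 h and 48 h were 13.2- to 14.1-fold (Irf1), 6.20- to 6.84-fold (Irf8), 5.75- to 6.03-fold (Irf7) and 2.35- to 2.64-fold (Irf9) those in the untreated library. The antagonist Irf2 was lower in both treated libraries, and the sensor-activated factors Irf3 and Irf5 stayed below 2-fold in either direction, except that Irf5, on 40 and 26 UMIs, was 0.455-fold at 24 h. So 4 of 7 members were at least 2-fold higher at 24 h, where 3.46% of 17412 genes were, and 4 of 7 at 48 h, where 5.26% of 17376 genes were. At least 2-fold lower were 1 of 7 at 24 h, against 26.0% of genes, and 0 of 7 at 48 h, against 16.6%. The median log2 ratio of the members was 1.23 at 24 h and 1.40 at 48 h, and that of all genes was -0.46 and -0.18.

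With values scaled to each library's total, the all-gene medians lay below 0. With TMM factors, which assume that most genes are alike in all libraries, they moved to -0.03 and -0.01, and the share of genes at least 2-fold higher and lower became 6.74% and 16.9% at 24 h and 6.59% and 13.5% at 48 h. Higher genes then made up 28.5% and 32.8% of the genes past 2-fold, against 11.7% and 24.1% with library totals. The 4 higher members stayed at least 2-fold higher with either scaling.

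Irf1, an activator that IFN-γ induces early, had 1168 UMIs without treatment, 23544 after 24 h and 14638 after 48 h. In CPM these were 23.5 (95% Poisson interval 22.1 to 24.8), 331 (327 to 336) and 310 (305 to 315). The untreated level lay far below both treated ones and no intervals overlapped. The log2 ratio to the untreated library was 3.82 (3.74 to 3.91) at 24 h and 3.72 (3.64 to 3.81) at 48 h, and 0.586% and 0.811% of genes had a higher ratio. Among detected genes ordered by level, Irf1 moved from place 6424 of 21856 to place 420 of 20968 and 410 of 20883.

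Irf8, the lymphoid and myeloid partner-dependent factor, had 2147 UMIs without treatment, 20966 after 24 h and 12633 after 48 h. Its levels were 43.1 CPM (41.3 to 45.0), 295 (291 to 299) and 267 (263 to 272). The log2 ratios were 2.77 (2.71 to 2.84) and 2.63 (2.57 to 2.70). In the order of all detected genes Irf8 stood at place 4308 untreated, 476 at 24 h and 489 at 48 h. Because Irf8 is a gene of immune cells, its level was read again in cells without a UMI of any of the 15 immune markers, which were 1002, 881 and 2892 cells. There it was 43.7, 295 and 268 CPM. These were nearly all cells, so the level could hardly move. In the other 56, 36 and 42 cells, which had such a UMI, it was 36.6, 291 and 257 CPM.

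Irf9, the DNA-binding subunit of ISGF3, had 380, 1273 and 952 UMIs, or 7.63 (6.88 to 8.44), 17.9 (16.9 to 18.9) and 20.2 (18.9 to 21.5) CPM. Its log2 ratios of 1.23 (1.06 to 1.40) and 1.40 (1.23 to 1.58) were the smallest of the 4 higher members. Irf7, the amplifier of the type I interferon response, had 178, 1460 and 1018 UMIs, or 3.57 (3.07 to 4.14), 20.5 (19.5 to 21.6) and 21.6 (20.2 to 22.9) CPM. Its log2 ratios were 2.52 (2.30 to 2.76) and 2.59 (2.36 to 2.83). Of the 178 untreated Irf7 UMIs, 39 were in 3 cells. The pooled ratios without these cells were not computed, so the place of Irf7 after Irf8 in fold may depend on them. For both genes the untreated interval lay below both treated intervals. In the untreated library Irf7 was lower than Irf9, at 24 h it was higher, and at 48 h their intervals overlapped.

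Irf2, the antagonist of IRF1, was the most abundant member of the untreated library with 105 CPM (102 to 108), and was at 75.4 (73.4 to 77.4) at 24 h and 86.3 (83.6 to 89.0) at 48 h. The log2 ratio was -0.48 (-0.54 to -0.43) at 24 h and -0.29 (-0.35 to -0.23) at 48 h. Relative to the median of all genes these were -0.03 and -0.11. With TMM factors the 24 h ratio was -0.05, and over all alternatives it was between -0.50 and -0.03. Irf3, the latent factor of the nucleic acid sensors, was at 34.0 (32.4 to 35.6), 30.6 (29.3 to 31.9) and 39.8 (38.1 to 41.7) CPM. Its 24 h log2 ratio of -0.15 (-0.24 to -0.06) turned to 0.28 with TMM factors, so its direction at 24 h depended on the scaling, while the 48 h ratio of 0.23 (0.13 to 0.33) lay between 0.12 and 0.41 in all alternatives. Irf5, a factor that works downstream of Toll-like receptors in myeloid cells, had 40, 26 and 36 UMIs, or 0.803 (0.574 to 1.09), 0.366 (0.239 to 0.536) and 0.762 (0.534 to 1.06) CPM. Its 24 h log2 ratio was -1.13 (-1.91 to -0.39), and between -1.21 and -0.62 in the alternatives, so that it was past 2-fold in only some of them. Its 48 h ratio of -0.08 (-0.77 to 0.61) has an interval on both sides of 0, and turned to 0.10 with TMM factors.

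**Figure D1:**
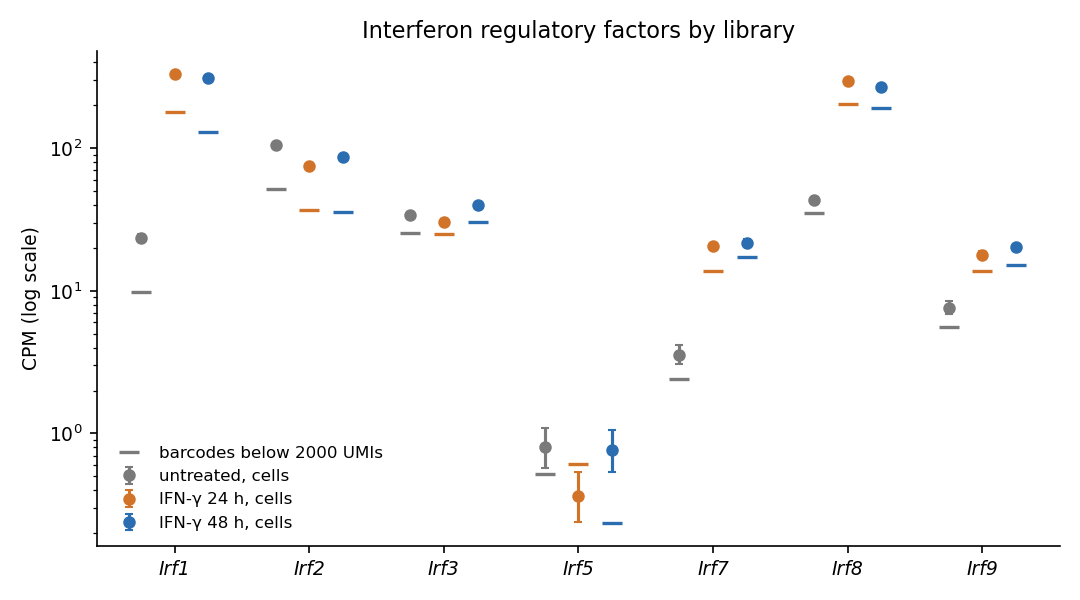
Levels of the 7 interferon regulatory factors in the cells of each library, in CPM on a log axis, with 95% Poisson intervals as bars; horizontal dashes mark the same gene in barcodes below 2000 UMIs of the same library. Irf1 and Irf8 sit near 300 in the treated libraries against 23.5 and 43.1 in the untreated one, Irf7 and Irf9 near 20, while Irf2 is highest in the untreated library and Irf5 lies near 1 or below in all 3.

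The order of the levels therefore differed between untreated and treated organoids. Untreated, it ran Irf2, Irf8, Irf3, Irf1, Irf9, Irf7 and Irf5, with no overlap between the intervals of neighbours. At 24 h and 48 h it ran Irf1, Irf8, Irf2, Irf3, Irf7, Irf9 and Irf5, and the only neighbours with overlapping intervals were Irf7 and Irf9 at 48 h. UMIs count captured 3′ ends and are not scaled to transcript length, and capture may differ between genes, so the order is one of counted molecules. Summed over the 7 members there were 218 CPM untreated, 771 at 24 h and 746 at 48 h. Of the molecules of these 7 genes, Irf2 made up 48.3% without treatment and 9.77% and 11.6% after 24 h and 48 h. Irf1 went from 10.8% to 43.0% and 41.6%, and Irf8 from 19.8% to 38.3% and 35.9%.

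Between the treated libraries the members differed little. Only Irf5 was past 2-fold, with a log2 ratio of 48 h over 24 h of 1.06 (0.29 to 1.85). That is 1 of 7 members at least 2-fold higher, against 11.6% of 16814 genes, and 0 of 7 lower, against 2.31%. With TMM factors these shares of genes were 6.41% and 4.06%, higher genes made up 61.2% of those past 2-fold in place of 83.5%, and the all-gene median moved from 0.26 to 0.01. Summed over all cells, Irf1 and Irf8 were slightly lower at 48 h than at 24 h. Their log2 ratios were -0.10 (-0.13 to -0.07) and -0.14 (-0.17 to -0.11), and stayed below 0 in all alternatives to the filters and the scaling. The direction was not the same in every cluster, as given below with the clusters. Irf3 was higher, at 0.38 (0.29 to 0.47). The ratios of Irf2 (0.19), Irf7 (0.07) and Irf9 (0.17) lay above 0, and each fell below 0 in at least 1 other scaling.

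**Figure D2:**
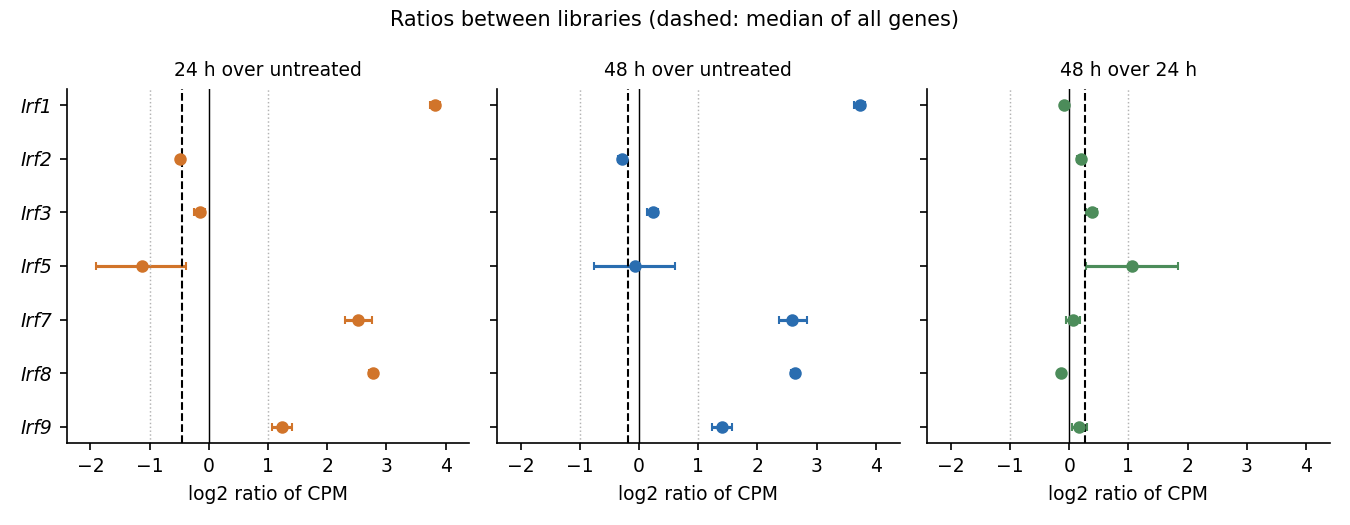
Log2 ratios of CPM between libraries for the 7 members, in 3 panels, with 95% exact intervals from counting error; the dashed line is the median of all genes, dotted lines mark 2-fold. Irf1, Irf8, Irf7 and Irf9 lie right of the 2-fold line in both comparisons with the untreated library, and in the comparison of 48 h with 24 h 6 members lie within 2-fold.

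Irf1 and Irf8 also differed between libraries in barcodes too shallow to count as cells. Barcodes with fewer than 2000 UMIs were taken as a stand-in for droplets without a cell. The shallowest barcode of each library held 1390, 851 and 1624 UMIs, so low barcodes may include small or damaged cells, which was not tested. They carried Irf1 at 9.87, 179 and 130 CPM and Irf8 at 34.9, 205 and 193 (untreated, 24 h and 48 h). In UMIs per barcode, a low barcode held 0.0163, 0.240 and 0.233 of Irf1 where a cell held 1.10, 25.7 and 4.99. Over the 7 members a low barcode held 0.849% to 2.87% of what a cell held in the untreated and 24 h libraries, and 3.42% to 8.85% in the shallower 48 h library. When the mean low barcode was subtracted from each cell, the same number of members stayed past 2-fold in each comparison with the untreated library.

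To see how the factors were spread over cells, every cell was thinned to 5000 UMIs, since depth alone changes the share of cells with a UMI. Irf1 was then found in 12.5% of untreated cells (10.5 to 14.6), 79.9% at 24 h (77.2 to 82.5) and 76.1% at 48 h (74.6 to 77.7), and the median cell held 0, 2 and 1 UMIs. Irf8 was found in 18.5% (16.2 to 21), 72.1% (69.1 to 75.0) and 64.5% (62.8 to 66.2) of cells, with 0, 1 and 1 UMIs in the median cell. Without thinning the shares were 49.5%, 99.0% and 91.9% for Irf1 and 60.8%, 97.1% and 83.8% for Irf8. No cell type known to lack these genes was present to give a background share. Cells and low barcodes were therefore also compared at the same depth of 1000 UMIs each, for which 241 shallower low barcodes of the 24 h library were left out. Irf1 was then found in 2.65% (1.77 to 3.802), 30.3% (27.4 to 33.4) and 26.6% (24.96 to 28.2) of cells and in 0.949%, 16.0% and 12.2% of low barcodes. Irf8 was found in 3.78% (2.71 to 5.11), 24.0% (21.3 to 26.9) and 19.6% (18.2 to 21.1) of cells and in 3.19% (2.94 to 3.46), 18.2% (17.6 to 18.8) and 16.98% (16.4 to 17.6) of low barcodes. The share of low barcodes was thus large for both genes in the treated libraries. For Irf8 it was close to the share of cells at 48 h and within the interval of that share in the untreated library. The share of cells with a UMI is therefore not read as the share of cells that express the gene.

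Irf7 and Irf9 were sparse in the treated libraries too. Irf7 was found in 2.08% (1.31 to 3.13), 7.63% (5.999 to 9.55) and 8.56% (7.57 to 9.63) of cells thinned to 5000 UMIs, and Irf9 in 3.21%, 9.71% and 9.71%. Without thinning these were 9.74%, 51.7% and 23.4% for Irf7 and 24.3%, 59.5% and 25.2% for Irf9, so the unthinned fall from 24 h to 48 h went with the lower depth of the 48 h cells. Irf2 was found in 40.5%, 36.1% and 35.5% of thinned cells, Irf3 in 16.9%, 14.2% and 18.2%, and Irf5 in under 1% of cells of each library. The share of cells in which none of the 7 was found went from 35.3% untreated to 3.16% at 24 h and 3.92% at 48 h.

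The counts of Irf1 in thinned cells had a variance of 1.11, 1.46 and 1.28 times the mean, and those of Irf8 of 1.13, 1.25 and 1.31 times. A ratio of 1 is what counting alone gives. In the untreated library the highest such ratio of these genes was that of Irf7, at 1.79. Irf1 and Irf8 were found together in 2.27%, 58.3% and 49.5% of thinned cells, against 2.31%, 57.6% and 49.1% if each occurred without regard to the other. Within each library the share of cells with both was close to that from chance pairing of the single shares.

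**Figure D3:**
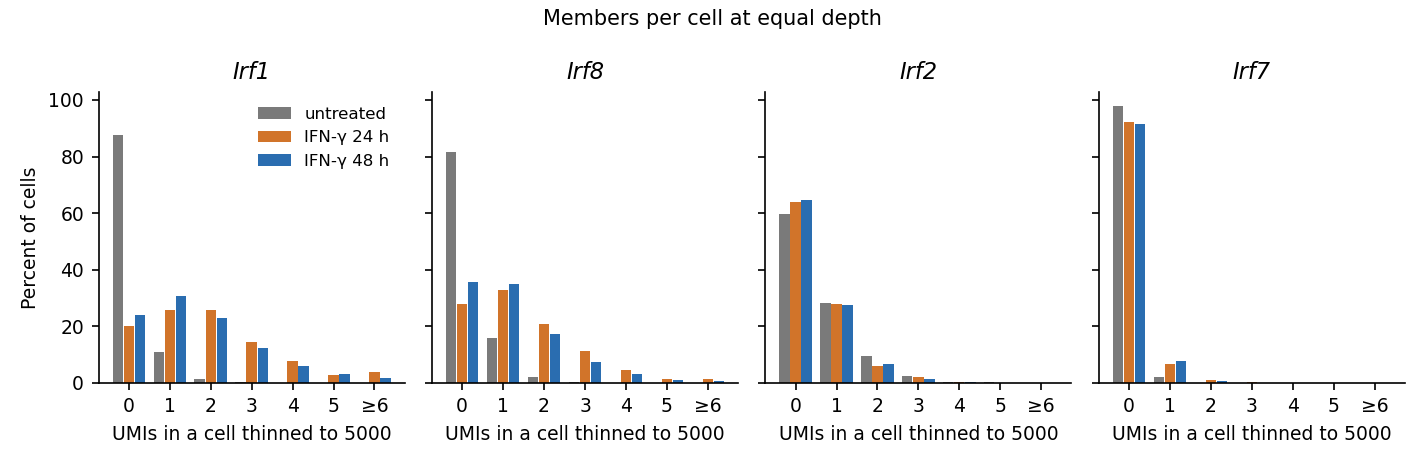
Percent of cells by the number of UMIs of Irf1, Irf8, Irf2 and Irf7 in cells thinned to 5000 UMIs, for each library. For Irf1 and Irf8 most untreated cells are at 0 and the treated cells spread over 1 UMI and more, while the 3 libraries nearly coincide for Irf2 and most cells of each library are at 0 for Irf7.

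The cells were then divided into clusters after integration of the libraries, with the 7 members left out of the genes that built the clusters. Of 9 clusters, 5 could be named from markers: cluster 2 as proliferating-like (133, 230 and 429 cells), cluster 4 as colonocyte-like, led by Krt20, Slc26a3 and Car1 (135, 75 and 187 cells), clusters 5 and 6 as goblet-like and cluster 7 as enteroendocrine-like. Cluster 0 (335, 175 and 1353 cells), the shallowest of the large ones with 15311, 15015 and 7283 UMIs in the median cell, stayed unnamed, as did cluster 1, led by histone and replication genes, cluster 3, led by Stox2, Edn1 and Msln, and cluster 8. Without integration the untreated cells formed clusters of their own, so states of the 3 libraries are matched by the integration. As marker genes differed between libraries, cluster sizes are not compared.

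Irf1 was higher in the treated libraries within each cluster that could be compared. Untreated levels ranged from 15.3 CPM in cluster 3 to 43.5 in cluster 5. At 24 h they ranged from 272 in cluster 6 to 468 in cluster 5 among the clusters with a value in each library compared, and the unnamed cluster 8, with 22 cells and a median of 6992 UMIs, was at 817 (686 to 965). They ranged at 48 h from 280 in cluster 6 to 416 in cluster 7. The within-cluster log2 ratios were 3.43 to 4.55 at 24 h and 3.03 to 4.39 at 48 h, the highest both times in cluster 3, with 4.55 (4.21 to 4.90) and 4.39 (4.06 to 4.74). For 48 h over 24 h the log2 ratio of Irf1 was lowest in cluster 0, at -0.42 (-0.51 to -0.34). It was 0.09 (-0.01 to 0.18) in the colonocyte-like cluster and 0.04 (-0.11 to 0.18) in goblet-like cluster 6. The other clusters with a value lay between -0.40 and -0.07. Between the colonocyte-like and the proliferating-like cluster the log2 ratio of Irf1 was 0.15 (-0.15 to 0.44) untreated, 0.01 (-0.05 to 0.08) at 24 h and 0.17 (0.08 to 0.26) at 48 h. With clusters made without integration it was 0.38 (0.33 to 0.44) at 24 h and 0.14 (0.08 to 0.21) at 48 h.

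Irf8 was also higher within each cluster, by log2 ratios of 2.53 to 3.40 at 24 h and 2.01 to 3.43 at 48 h. At 48 h the lowest levels were 166 CPM in goblet-like cluster 5, 171 in the enteroendocrine-like cluster and 186 in cluster 0. The highest were 375 in goblet-like cluster 6 and 456 in the colonocyte-like cluster. The colonocyte-like cluster exceeded the proliferating-like one in all 3 libraries, with log2 ratios of 0.29 (0.10 to 0.48), 0.39 (0.33 to 0.45) and 0.71 (0.63 to 0.80). For 48 h over 24 h the log2 ratio of Irf8 was 0.23 (0.15 to 0.32) in the colonocyte-like cluster and 0.24 (0.11 to 0.37) in goblet-like cluster 6. It was -0.25 (-0.37 to -0.12) in cluster 0 and -0.52 (-0.81 to -0.23) in cluster 5. The other clusters with a value lay between -0.09 and 0.02. Clusters 0 and 5 also had low depth. Cluster 8 at 24 h, with 22 cells and a median of 6992 UMIs, had Irf8 at 361 CPM (276 to 464). At 48 h clusters 0 and 5 were at or below the 193 CPM (187 to 198) of the low barcodes of that library. In UMIs per barcode they were above them. Cluster 0 held 2159 Irf8 UMIs in 1353 cells and cluster 5 held 226 in 154 cells, where a low barcode held 0.344. The part of depth or free RNA in the differences between clusters was not tested.

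Irf7 had its highest untreated level in the colonocyte-like cluster, at 10.1 CPM against 1.65 to 3.54 in the other clusters. In the treated libraries that cluster (41.2 at 24 h, 44.0 at 48 h) and cluster 3 (39.2 and 34.1) stood above the proliferating-like cluster (16.7 and 19.5). Higher values on few UMIs were found in 2 small clusters. Cluster 8 at 24 h was at 82.9 (45.3 to 139) on 14 UMIs. The enteroendocrine-like cluster at 48 h was at 48.2 (24.0 to 86.2) on 11 UMIs. The log2 ratio of the colonocyte-like over the proliferating-like cluster was 2.13 (1.48 to 2.81), 1.30 (1.09 to 1.51) and 1.18 (0.89 to 1.46). The untreated value rested on few cells: of 75 Irf7 UMIs in 135 colonocyte-like cells, 39 (52.0%) were in 3 cells. Without the 3 cells of most Irf7 in that cluster of each library, a choice made after their values were seen, the levels were 4.92, 37.7 and 39.1 CPM and the log2 ratios over the proliferating-like cluster 1.09 (0.34 to 1.86), 1.17 and 1.0. The ratio of 24 h over untreated within the colonocyte-like cluster was 2.03 (1.66 to 2.41) with these cells and 2.94 (2.43 to 3.48) without.

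**Figure D4:**
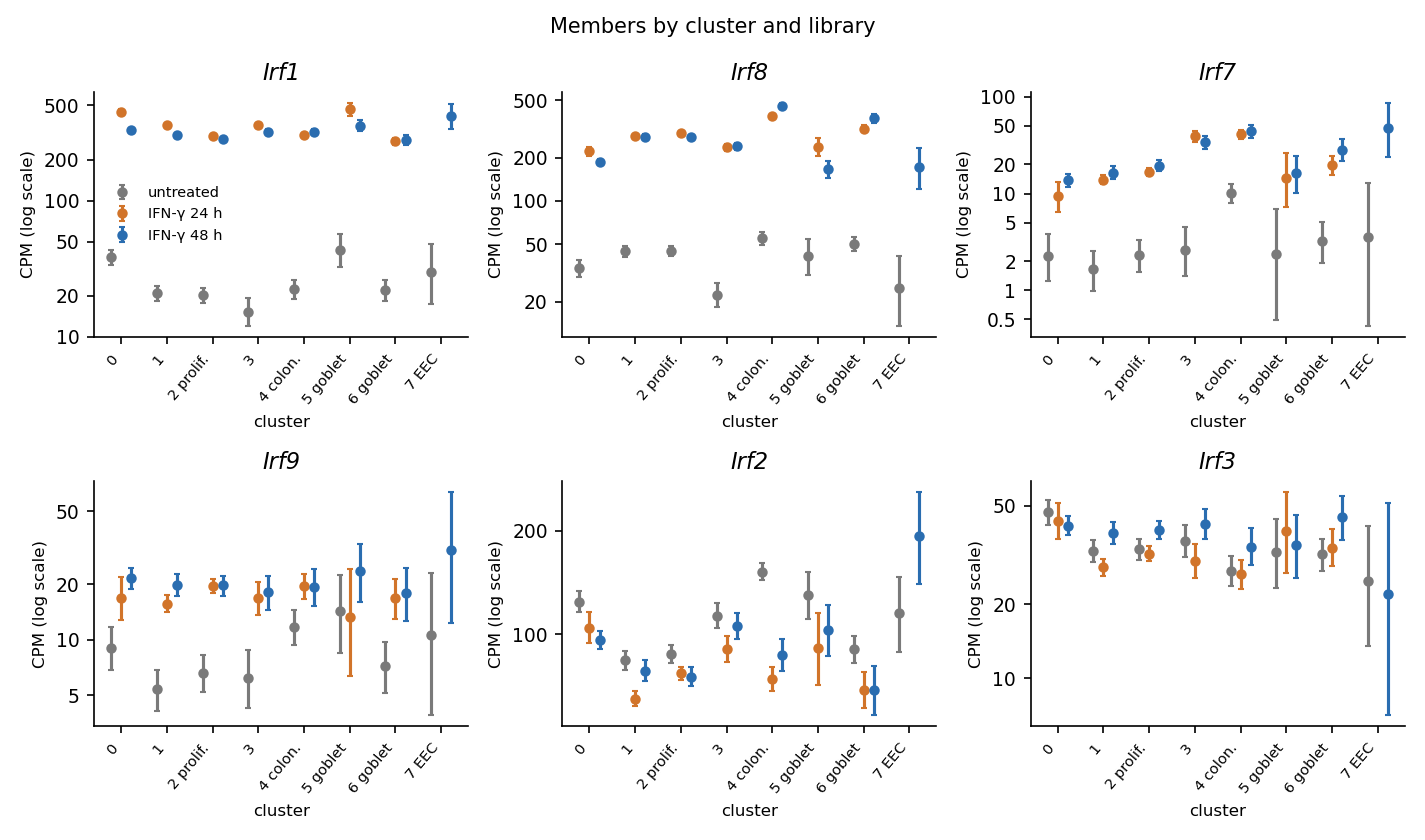
Levels of 6 members in clusters 0 to 7 of each library, in CPM on log axes with 95% Poisson intervals; the enteroendocrine-like cluster (EEC) has no 24 h point because it held under 20 cells there. Irf1 and Irf8 are higher in both treated libraries in every cluster, Irf7 is highest in the colonocyte-like cluster untreated and in clusters 3 and 4 at 24 h, and untreated Irf2 is highest in the colonocyte-like cluster.

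Irf9 was higher in the colonocyte-like than in the proliferating-like cluster of the untreated library, and the pair lay close together in the treated ones. Untreated levels were 5.37 in cluster 1, 6.23 in cluster 3, 6.60 in the proliferating-like cluster, 7.18 in goblet-like cluster 6 and 9.04 in cluster 0. The enteroendocrine-like cluster was at 10.6 (3.90 to 23.1) on 6 UMIs and the colonocyte-like cluster at 11.7 (9.38 to 14.45). Goblet-like cluster 5 was highest, at 14.25 (8.44 to 22.5) on 18 UMIs. A high untreated level was thus not particular to the colonocyte-like cluster. At 24 h the proliferating-like and the colonocyte-like cluster were at 19.6 and 19.5, and at 48 h at 19.7 and 19.4. The log2 ratio of colonocyte-like over proliferating-like was 0.83 (0.37 to 1.28) untreated, -0.01 at 24 h and -0.03 at 48 h, with intervals on both sides of 0 at both times. Within clusters, the 24 h ratio was 1.57 (1.23 to 1.93) in the proliferating-like and 0.74 (0.35 to 1.13) in the colonocyte-like cluster. In goblet-like cluster 5, which held 31 cells at 24 h, it was -0.11 (-1.39 to 1.08).

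Irf2 was highest untreated in the colonocyte-like cluster (152 CPM), where it was at 74.3 at 24 h and 87.3 at 48 h. The log2 ratio there was -1.03 (-1.18 to -0.89) at 24 h and -0.80 (-0.98 to -0.63) at 48 h, while the other clusters with a 24 h value lay between -0.19 and -0.51. In the untreated library the colonocyte-like cluster exceeded the proliferating-like one by a log2 ratio of 0.79 (0.67 to 0.92). At 24 h this was -0.05 (-0.18 to 0.08) and at 48 h 0.21 (0.03 to 0.39). With clusters made without integration it was 0.43 (0.31 to 0.55) at 24 h and 0.36 (0.24 to 0.48) at 48 h. The difference in the treated libraries thus depended on the clustering. Irf3 was slightly lower in the colonocyte-like than in the proliferating-like cluster, at -0.29 (-0.54 to -0.04), -0.27 (-0.50 to -0.06) and -0.22 (-0.51 to 0.05). Without integration the Irf3 values were -0.07 (-0.29 to 0.14) at 24 h and -0.02 (-0.20 to 0.17) at 48 h. Irf5 had 0 to 17 UMIs in any cluster of a library. In the proliferating-like cluster it was below the other cells of the same library in all 3 libraries, with log2 ratios of -1.99 (-4.33 to -0.33), -1.70 (-3.70 to -0.14) and -2.67 (-5.77 to -0.71), and in cluster 0 it was above them, with 1.76 (0.68 to 2.76), 1.37 (-1.01 to 3.09) and 1.46 (0.42 to 2.48).

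**Figure D5:**
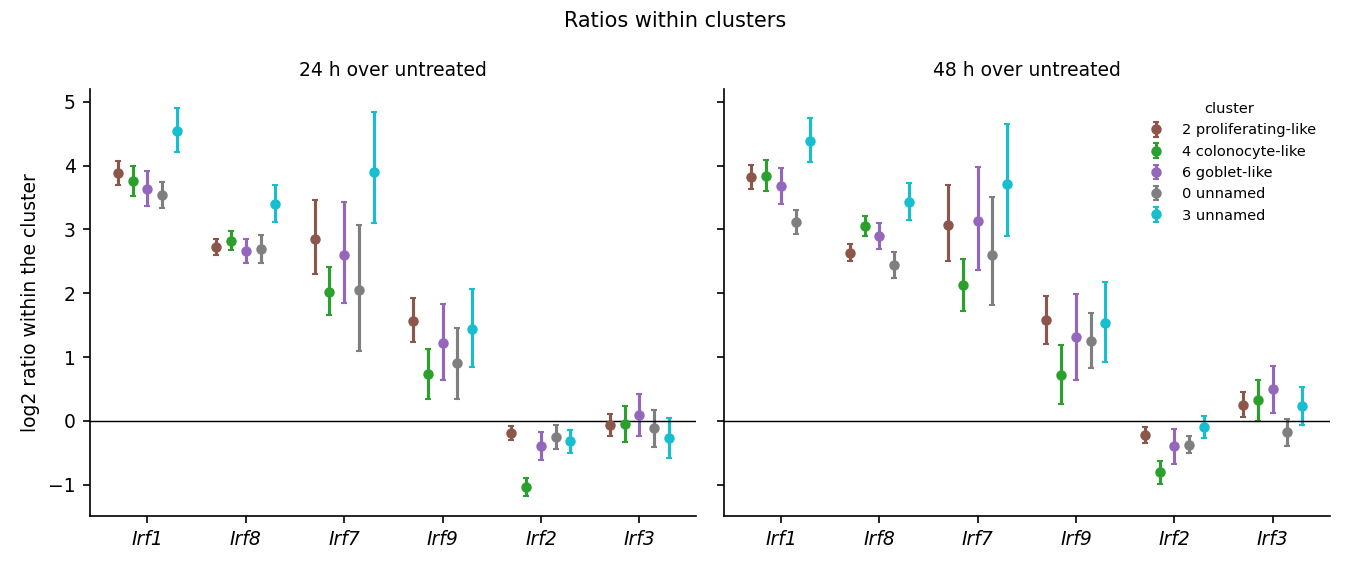
Log2 ratios of treated over untreated CPM within 5 clusters for 6 members, at 24 h and 48 h, with 95% exact intervals from counting error. Irf1, Irf8 and Irf7 lie above 0 in all 5 clusters, with cluster 3 highest for each at 24 h, and Irf2 lies below 0 with the colonocyte-like cluster lowest.

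The genes whose levels followed each factor most closely were sought over 24 cluster-by-library sums of at least 20 cells, among 8651 genes. The points share their library, so a difference between libraries alone gives a high correlation. For Irf1 the closest were the GTPase genes Irgm2 and Gbp4 and the gene Gm12185, each with a Pearson r of 0.98. For Irf8 they were the immunoproteasome and proteasome activator genes Psmb9 (0.97) and Psme1 (0.96) and Ido1 (0.96), which degrades tryptophan. For Irf9 they were its ISGF3 partner Stat2 (0.92), the ADP-ribosyltransferase gene Parp14 (0.90) and Irf1 (0.89), and for Irf7 Batf2 (0.93), Creb3 (0.92) and Sectm1b (0.92). The genes nearest to Irf2 were Sema4b, Specc1l and Tom1l2 (0.88 to 0.89), and those nearest to Irf3 were Hspbap1, Iars and Eif4g1 (0.85 to 0.88).

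When each library's mean was taken off, so that only the differences between clusters remained, the nearest genes were other ones, apart from Tom1l2 for Irf2 (0.87) and Iars for Irf3 (0.88). Irf1 was then nearest to Ccnl2 (0.90), Irf8 to Tmem50b (0.86), Irf9 to Mgrn1 (0.82), Irf2 to Parp14 (0.93), Irf3 to Atf6b (0.89) and Irf7 to Myo15b (0.91), with Txnip (0.91) and Mxd1 (0.89), a MYC antagonist of differentiating cells, next for Irf7. Among the members, Irf1 and Irf8 had an r of 0.93 with the library means and -0.10 without them. Irf1 and Irf9 had 0.89 and 0.66, Irf1 and Irf7 0.86 and 0.22, and Irf3 and Irf7 -0.22 and -0.64. The likeness of Irf1 and Irf8 was thus one between libraries and not one between clusters.

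Of the genes upstream of the factors, Ifngr2, a chain of the IFN-γ receptor, was at least 2-fold lower at both times, with log2 ratios of -1.15 and -1.46, and the other chain, Ifngr1, had -0.99 and -0.85. Of all genes tested, 26.0% and 16.6% were at least 2-fold lower, and the all-gene median was -0.46 and -0.18. These are ratios scaled to library totals, and other scalings were not tried for these genes. The paper reports no significant fall of the IFN-γ receptors across its culture conditions, in a measurement that was not compared here. The kinases Jak1 (-0.36 and -0.18) and Jak2 (-0.02 and 0.43) were within 2-fold. Among the factors' DNA-binding partners, Batf2, which pairs with IRF1 in macrophages, had 3.60 and 3.97, and Stat2 had 1.99 and 2.71. The IRF2-binding co-repressors Irf2bp1, Irf2bp2 and Irf2bpl had -0.40, -0.54 and -0.66 at 24 h. Batf had 0, 1 and 2 UMIs and Spi1, the myeloid partner of IRF8, 2, 1 and 0, so both were almost undetected in each library.

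Of the interferon genes that IRF3 and IRF7 induce, the 3 on the list were almost undetected, and the others were not analysed here. Ifnb1 had 0, 0 and 1 UMIs, Ifnl2 0, 2 and 0 and Ifnl3 0, 1 and 0. Of the 4 type I and III receptor chain genes and the receptor kinase Tyk2, 1 of 5 was at least 2-fold higher at both times, Ifnar2, with log2 ratios of 1.14 and 1.34. The sensors, adaptors and kinases that lead to phosphorylation of IRF3, IRF5 and IRF7 were mostly within 2-fold. Of these 14, 1 was higher at 24 h and 3 at 48 h, and none was lower. Of all genes tested, 3.46% and 5.26% were at least 2-fold higher, and 26.0% and 16.6% lower. The counts of this list and of the lists below are from ratios scaled to library totals. Other scalings were not tried for these lists, so their counts may depend on it. With TMM factors 6.74% and 6.59% of all genes were at least 2-fold higher. The highest of the 14 at 24 h was the adaptor Myd88 (1.09) and the lowest the kinase Ikbke (-0.58). At 48 h the highest was Tlr3 (1.15), the receptor for double-stranded RNA.

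Known targets of IRF1 were higher in the treated libraries in most cases. At least 2-fold higher were 8 of 10 at 24 h, with 1 lower, and 9 of 10 at 48 h, with 0 lower. Of all genes, 3.46% and 5.26% were higher, and 26.0% and 16.6% lower. The median log2 ratio of these targets was 5.80 and 5.63. Gbp2, a GTPase of cell-autonomous defence, went from 2 UMIs untreated to 40550 and 30176. The cytokine gene Il15, also a target, had -1.48 and -0.76. Of 9 known ISGF3 and IRF7 targets, 6 were at least 2-fold higher at each time and 0 lower, with medians of 2.51 and 3.16. Oasl2, an antiviral gene, was highest with 4.45 and 5.21, and Ifit1 was lowest at 24 h with -0.26, while Ifit3 was lowest at 48 h with -0.47. The untreated level of this list, 31.1 CPM together, rested in part on few cells. There 4 untreated cells held 132, 430, 126 and 92 UMIs of the list, where the median untreated cell had 0. The ratios without these cells were not computed, so the low values of Ifit1 and Ifit3 are not read as a lack of response. The target lists also hold genes that other factors bind, so their levels do not single out a member.

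Of 7 negative regulators of the factors, 2 were at least 2-fold higher at both times and 1 was lower at 24 h. The shares of all genes were 3.46% and 5.26% higher, and 26.0% and 16.6% lower. Socs1, the feedback inhibitor of the JAK kinases, had the highest log2 ratios of the 7, 5.95 and 4.90. Tnfaip3, which restrains signalling from Toll-like receptors, had -1.22 and -0.90. All these lists were chosen with earlier results of these data known, so their counts are a description.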

How the data were processed

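Droplet 3′ single-cell RNA sequencing of 3 mouse colon organoid libraries (untreated, IFN-γ 24 h, IFN-γ 48 h) was re-analysed. The authors deposited UMI counts per gene and barcode, made with Cell Ranger 6.0.1 on mm10; the annotation release was not given in the sources used here. Following the study, cells were barcodes of 5000 or more UMIs and 400 or more genes whose mitochondrial share did not pass 15%. No doublet caller was run. UMIs were summed per library and scaled to CPM; genes needed 10 UMIs over both libraries compared. Intervals are 95% exact Poisson, Clopper-Pearson (shares) or conditional binomial (ratios). With 1 library per condition no test was run, and "past 2-fold" describes size. Cells were thinned to 5000 UMIs for shares of cells, and cells and low barcodes to 1000 UMIs to set them side by side. Clusters came from Seurat 5.3.0 (CCA over 30 dimensions, 2000 variable genes, 20 principal components, resolution 0.5). A cluster was named when at least 3 markers of 1 list were above the other cells (log2 fold of at least 0.5), no other list led and at least 1 marker was among its 10 leading genes; this last condition was added after the clusters were seen. States needed 20 cells in a library. Alternatives used TMM (edgeR 4.0.16), median-of-ratios factors (DESeq2 1.42.0) and other filters and clusterings, and 2 were added after seeing the data (subtraction of low barcodes, leaving out 3 cells). Scripts ran in Python 3.11.15 and R 4.3.3 and were tested on simulated data. The members and lists were chosen with earlier results of these data known. All members are named. Of the lists, the genes of highest and lowest ratio and those at 0 UMIs are named in part. Further list genes were named after their values were seen. Positions are from GENCODE M21 and promoter windows from RefSeq. Mx1 and Mx2 are not analysed here. Some genes of the lists are not reported here.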

Additional observations from a re-analysis of the deposited data

Results flagged for a closer look

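The log2 ratio of Irf2 between the 48 h and the untreated library had opposite signs in different states. The log2 ratio of 48 h over untreated was 0.74 in the enteroendocrine-like cluster, which held 30 untreated and 21 treated cells, and -0.80 in the colonocyte-like, -0.25 in the goblet-like and -0.22 in the proliferating-like cells. The difference between states was not tested, since each state has 1 library per condition. In the enteroendocrine-like cluster the interval was 0.16 to 1.32, on 65 untreated and 44 treated Irf2 UMIs. The median log2 ratio of all genes at 48 h was -0.18, near the goblet-like and proliferating-like values.

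Barcodes below the cell filter carried some factors above the level of the same barcodes in the untreated library. With fewer than 2000 UMIs per barcode, Irf1 was at 179 CPM at 24 h and 130 at 48 h against 9.87 untreated, Irf8 at 205 and 193 against 34.9, Irf7 at 13.7 and 17.2 against 2.41 and Irf9 at 13.8 and 15.2 against 5.57. Irf3 was at 30.2 at 48 h against 25.6 untreated. For each of these genes the cells of the same library were at a higher CPM, Irf1 at 331 and 310, Irf8 at 295 and 267, Irf7 at 20.5 and 21.6, Irf9 at 17.9 and 20.2 and Irf3 at 39.8.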

How the results depend on the processing

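At both times 4 of 7 members stayed at least 2-fold higher than in the untreated library under all 8 alternatives to the filters, the summation, the scaling and the free RNA, the last of them chosen after seeing the data. Their log2 ratios ranged from 3.71 to 4.27 and from 3.43 to 3.90 for Irf1 (24 h and 48 h), 2.72 to 3.23 and 2.54 to 2.81 for Irf8, 2.23 to 2.97 and 2.06 to 2.77 for Irf7, and 1.02 to 1.68 and 1.20 to 1.58 for Irf9. The count of members at least 2-fold lower at 24 h, 1 (Irf5), was 0 with at most 10% mitochondrial UMIs, without the 5% of cells with most UMIs, with the mean of per-cell values, with TMM and with median-of-ratios factors. The count of members past 2-fold between 48 h and 24 h, 1 (Irf5), was 0 with a minimum of 2000 or 10000 UMIs, at most 10% mitochondrial UMIs, the mean of per-cell values, TMM and median-of-ratios factors. The members' median at 24 h was 1.02 with per-cell means, 1.66 with TMM and 1.68 with median-of-ratios factors, and at 48 h 1.20 with per-cell means and 1.58 with median-of-ratios factors. Of the member ratios between libraries, 107 values stayed within the counting interval and 61 moved beyond it; the causes were not tested. The count of members higher in the colonocyte-like than in the proliferating-like state, with an interval above 0 in each library that gave a value, was 2, also 2 at resolution 1, and 4 without integration, which gave values for the 24 h and 48 h libraries alone. Irf1 and Irf2 counted only without integration. The share of all genes that meet this rule was not computed, so these counts are not read as a result about the members. At resolution 0.3, with 30 principal components and with the pathway lists left out, no proliferating-like cluster was named and no value was had. Irf5 (26 to 40 UMIs) and the 48 h library (median 10772 UMIs per cell) are limited most by depth. No replicate could be left out. No paired analysis was possible because each condition has 1 library.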

Other observations

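A few untreated cells carried most of the Irf7 of the colonocyte-like cluster, and were singled out after their values were seen. The 3 cells held 22, 10 and 7 Irf7 UMIs, with 0, 4 and 1 of Irf1 and 0, 0 and 4 of Irf8. In the same cells the known ISGF3 and IRF7 target list (Isg15, Oas and Ifit genes among others) had 132, 430 and 126 UMIs, where the median untreated cell had 0. The untreated cell with the next most Irf7, in the proliferating-like cluster, had 6 UMIs of it and 92 of the list. These 4 cells were also the 4 untreated cells with most UMIs of that list. In the treated libraries the median cell had 8 (24 h) and 2 (48 h) UMIs of the list. These are counts without thinning, from cells with medians of 68784 and 10772 UMIs. Scaled to library totals the list was at 233 and 250 CPM.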
